A study of Mus musculus with 6 samples.

Results

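The 10 genes described here mark endothelial cells, the cells that line the lumen of the aorta and of the small vessels in its wall. They are Pecam1, Cdh5, Kdr, Tek, Tie1, Nos3, Vwf, Eng, Ptprb and Emcn, taken by symbol from a table of 55487 genes measured in whole mouse aorta. Each symbol had 1 gene identifier, and all 10 passed the filter on low counts that left 16139 genes for testing. The rule is a list of symbols and uses no measured value, though the list was drawn up with earlier results of these data known.

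RNA of whole aorta was sequenced in 6 libraries, 3 from mice of genotype LoxP, whose titles read SM22-Ctrl and whose Ogt gene was floxed, and 3 of genotype Ogt SMC specific knockout, titled SM22-∆Ogt. Ogt encodes O-GlcNAc transferase, and SM22 is another name of the smooth muscle gene Tagln. The labels place the deletion in smooth muscle cells, so endothelial cells are not the labelled target. The labels state no age, sex, batch or number of mice per library, and p-values measure the spread between these libraries, which may be partly technical. Ogt itself had CPM values (counts normalised to the TMM-scaled library total) of 177.4, 183.2 and 149.97 in the controls and 93.3, 73.5 and 70.9 in the knockouts. Its log2 fold change was -1.10 ± 0.15 (SE), with an edgeR adjusted p of 0.0214. The groups did not overlap, but the call was lost when control replicate 1 was left out (adjusted p = 0.105) or when any 1 knockout was (0.0729, 0.126 and 0.0732 for replicates 1, 2 and 3).

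Endothelial cells are held together by VE-cadherin and PECAM-1 and sense growth factors through the VEGF receptor KDR and the angiopoietin receptor TIE2, the product of Tek. They make nitric oxide, which relaxes the underlying smooth muscle, and they store von Willebrand factor for release after injury. In RNA of a whole vessel they contribute beside smooth muscle, fibroblasts, macrophages and fat.

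Libraries held between 3038782 counts (control replicate 2) and 18218385 counts. Control replicate 2 stood apart in composition, with 10.2% of counts in mitochondrial ribosomal RNA against 0.491% to 0.823% elsewhere. The 12 contractile smooth muscle genes used to check the tissue label summed to 30547 to 42367 CPM, against 941.5 to 2131.5 CPM for the 10 endothelial markers. A change in these bulk values can come from fewer cells of a type or from less RNA per cell, and these cannot be told apart.

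Most of the markers were high in knockout replicates 1 and 2 and low in knockout replicate 3. Over the 10 genes, knockout replicate 1 stood at a median of 2.21-fold (range 0.810 to 3.07) and knockout replicate 2 at a median of 2.27-fold (1.26 to 2.74) of the level in knockout replicate 3. For 6 of the 10 markers knockout replicates 1 and 2 were the highest libraries and knockout replicate 3 the lowest, beside 1.43% of all tested genes. The knockouts thus bracketed the controls there, and also for Kdr, with replicate 1 lowest and replicate 2 highest. For Cdh5, Eng and Emcn control replicate 1 was the lowest library. No marker had groups that did not overlap, compared with 31.8% of all tested genes (16.9% with every knockout library above every control and 14.8% the reverse). In edgeR's quasi-likelihood test 0 of 10 markers were called, against 3.45% of all tested genes (1.9% higher and 1.56% lower), and 0 had an unadjusted p under 0.05, against 22.7%. DESeq2 and limma voom also called 0 of the 10, against 9.32% and 4.73% of the genes they tested, and 1 and 0 of the 10 had an unadjusted p under 0.05 there, against 21.9% and 23.9%. Log2 fold changes of knockout against control were positive for 9 markers and negative for 1, compared with 48.7% positive over all tested genes. Their median was 0.40, beside -0.01 over all tested genes. Markers of other cell types were also mostly positive in some lists, with 10 of 10 macrophage genes (median 0.35) and 7 of 8 Schwann and nerve genes (median 0.24), and their part in the endothelial values was not tested.

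**Figure D1:**
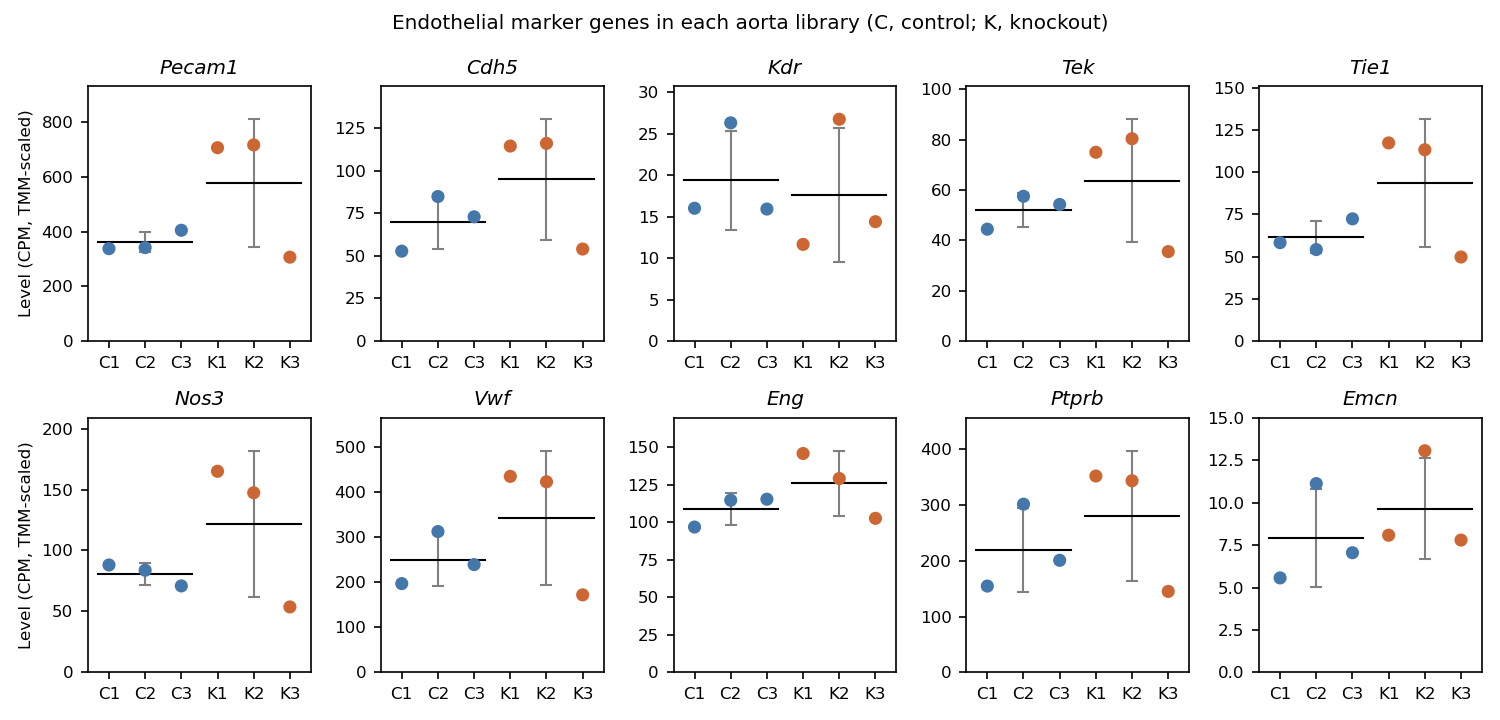
Level of each marker in CPM (vertical axes from 0, scaled to the gene) in control (C1 to C3, blue) and knockout (K1 to K3, orange) libraries; black lines are group means and grey bars the SD (n = 3). In 8 of the 10 panels K1 and K2 are the highest points, and in 6 of these K3 is the lowest point of all.

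Of the adhesion molecules, Pecam1 (ENSMUSG00000020717; GRCm38 chromosome 11, 106654217 to 106750628) had the highest mean level of the 10. This immunoglobulin-family protein sits at endothelial contacts and is also carried by platelets and some leukocytes. Its level in the 3 controls, in order of replicate, was 337.8, 341.9 and 405.2 CPM, and in the 3 knockouts 707.6, 717.8 and 306.8 CPM. Knockout replicates 1 and 2 lay far above every control, and knockout replicate 3 lay below every control. The log2 fold change was 0.67 ± 0.31 (SE, 95% interval -0.05 to 1.40, edgeR adjusted p = 0.249), which was the smallest adjusted p of the 10. Cdh5 (chromosome 8, 104101625 to 104144511) encodes VE-cadherin, the adhesive protein of endothelial adherens junctions. Its values were 52.8, 84.9 and 73.0 CPM in controls and 114.6, 116.2 and 54.0 CPM in knockouts. The 2 high knockout libraries again exceeded every control, while control replicate 1 and knockout replicate 3 were almost level. Its log2 fold change was 0.44 ± 0.32 (95% interval -0.31 to 1.19, edgeR adjusted p = 0.448).

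The receptors of the angiopoietin system followed the same course. Tek (chromosome 4, 94739289 to 94874976) encodes TIE2, the tyrosine kinase that binds angiopoietins. It had 44.4, 57.5 and 54.2 CPM in controls and 75.0, 80.3 and 35.5 CPM in knockouts. Tie1 (chromosome 4, 118471191 to 118490061) encodes the related receptor that pairs with TIE2. Its values were 58.2, 54.1 and 72.3 CPM in controls and 117.3, 113.3 and 49.7 CPM in knockouts. Ptprb (chromosome 10, 116275523 to 116389535) encodes VE-PTP, the phosphatase that acts on TIE2 and on the VE-cadherin complex. It had 154.5, 301.1 and 200.6 CPM in controls and 351.5, 343.0 and 145.0 CPM in knockouts. For all 3 genes the first 2 knockout libraries were the highest of the 6 and knockout replicate 3 the lowest. Ptprb differed from Tie1 in control replicate 2, where Ptprb came close to the high knockout libraries and Tie1 was near its other controls. Log2 fold changes were 0.30 ± 0.30 for Tek, 0.59 ± 0.32 for Tie1 and 0.36 ± 0.38 for Ptprb, with edgeR adjusted p-values of 0.598, 0.322 and 0.619.

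Kdr (chromosome 5, 75932827 to 75978458), the main VEGF receptor of endothelial cells, did not follow the others. Its level was 16.0, 26.3 and 15.9 CPM in controls and 11.7, 26.8 and 14.4 CPM in knockouts. Knockout replicate 1, a high library for 8 of the markers, was the lowest of all for Kdr. That library held 137 Kdr counts, with a 95% Poisson interval of 9.79 to 13.8 CPM, and knockout replicate 2 held 455 counts, with an interval of 24.4 to 29.3 CPM, so the gap between them exceeds counting error. Kdr was the 1 marker with a negative log2 fold change (-0.09 ± 0.35, 95% interval -0.91 to 0.72, edgeR adjusted p = 0.904). The sign rests on single libraries, since it turned positive without control replicate 2 (0.15), knockout replicate 1 (0.13) or knockout replicate 3 (0.04). Emcn (chromosome 3, 137341067 to 137432185), which encodes the surface sialoglycoprotein endomucin, had 5.57, 11.1 and 7.05 CPM in controls and 8.08, 13.1 and 7.80 CPM in knockouts. Control replicate 2 and knockout replicate 2 were its highest libraries. Control replicate 2 rested on 30 Emcn counts, with a 95% Poisson interval of 7.50 to 15.9 CPM that contains the values of all 3 knockout libraries and of neither other control. Poisson intervals cover counting error alone.

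Eng (chromosome 2, 32646595 to 32682669) encodes endoglin, a co-receptor for BMP9 and TGF-beta that fibroblasts and macrophages can also make. It had 96.7, 114.6 and 115.2 CPM in controls and 145.6, 129.0 and 102.5 CPM in knockouts. Its highest library was 1.51-fold above its lowest, while the other 9 markers spanned 2.20-fold to 3.07-fold. The log2 fold change of Eng was 0.21 ± 0.16 (95% interval -0.16 to 0.58, edgeR adjusted p = 0.472). Exons of Fpgs on the opposite strand overlap those of Eng in the GENCODE M21 annotation. Fpgs had 1614 counts over the 6 libraries against 9086 for Eng, and the strand setting of the counting is unknown, so reads of this pair cannot be separated.

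Nos3 and Vwf represent the vasomotor and clotting functions of the endothelium. Nos3 (chromosome 5, 24364810 to 24384474) encodes the endothelial nitric oxide synthase. It had 88.1, 83.8 and 71.0 CPM in controls and 165.0, 147.3 and 53.7 CPM in knockouts. This was the widest spread of any marker, 3.07-fold between knockout replicates 1 and 3, around controls that lay close together. Its log2 fold change of 0.59 ± 0.39 had a 95% interval of -0.34 to 1.52 (edgeR adjusted p = 0.412). Vwf (chromosome 6, 125546774 to 125686679) encodes von Willebrand factor, the multimeric protein that tethers platelets. Its values were 197.1, 312.6 and 239.2 CPM in controls and 435.1, 423.0 and 172.1 CPM in knockouts, with a log2 fold change of 0.46 ± 0.36 (edgeR adjusted p = 0.488). As for Ptprb, the highest control was replicate 2. The 2 antisense genes whose exons overlap Nos3, Gm15587 and Atg9b, had 8 and 34 counts in all against 7913 for Nos3.

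Upstream sequence is shown for the marker nearest to the list's shared movement (Tek) and for the 2 farthest from it (Kdr and Emcn). Nos3 was nearly as far from it as Emcn. The RefSeq promoter table (build GRCm38.p6) matched 5 of the 10 genes, namely Eng, Emcn, Tek, Tie1 and Kdr. The bases run 5′ to 3′ on the strand of the gene and end before the first annotated exon base. They span chr4:94739039-94739288 (plus strand, 250 bases) for Tek, chr5:75978459-75978705 (minus strand, 247 bases) for Kdr and chr3:137340828-137341066 (plus strand, 239 bases) for Emcn. Capitals mark GGAA and its reverse complement TTCC, the core that ETS factors, regulators of many endothelial genes, are known to bind.
Tek: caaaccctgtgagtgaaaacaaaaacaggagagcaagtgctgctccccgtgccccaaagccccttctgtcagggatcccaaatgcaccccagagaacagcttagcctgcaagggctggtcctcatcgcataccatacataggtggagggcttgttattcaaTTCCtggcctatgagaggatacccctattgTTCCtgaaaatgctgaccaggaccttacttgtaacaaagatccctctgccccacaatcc
Kdr: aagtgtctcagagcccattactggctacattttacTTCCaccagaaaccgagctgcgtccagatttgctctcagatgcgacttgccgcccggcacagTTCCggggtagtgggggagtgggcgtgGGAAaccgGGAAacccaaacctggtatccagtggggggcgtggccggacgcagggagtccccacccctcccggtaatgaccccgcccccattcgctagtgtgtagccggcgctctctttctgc
Emcn: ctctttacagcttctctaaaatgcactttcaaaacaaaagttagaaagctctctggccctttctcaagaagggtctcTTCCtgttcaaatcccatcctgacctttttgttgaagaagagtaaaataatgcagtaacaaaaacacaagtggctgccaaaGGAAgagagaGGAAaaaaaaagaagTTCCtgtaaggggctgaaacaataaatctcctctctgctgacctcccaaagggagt
Over 250 bases before the start and both strands, GGAA had 2 matches in Tek, 3 in Eng, 4 in Kdr, 4 in Emcn and 7 in Tie1. The median over all 32851 promoters of the table was 3, 93.4% held at least 1 match, and 33.4% held at least 4. At least 7 matches, as in Tie1, were found in 3.82% of promoters. For Tie1, however, the 250 bases overlap the gene's own exons in the GENCODE M21 annotation. Only 38 of them lie before the annotated gene, and these hold 1 GGAA and 1 TTCC. The longer form CAGGAAG, which contains GGAA, had 1 match, in Emcn, against 10.8% of all promoters, all on either strand. For CCGGAAG, another form that contains GGAA, 0 of the 5 genes had a match, against 6.91%. The GATA-type hexamer AGATAA was found in 0 of the 5, against 9.99%. The TATA box letters TATAAA were found in 0 of the 5, against 12.4%. Emcn and Kdr differed in base composition, with 40.8% and 61.6% G and C beside a median of 52.4%.

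How far the markers moved together was measured on log2 CPM after subtracting each gene's mean over the 6 libraries. In order of replicate, the mean of the 10 genes was -0.38, 0.07 and -0.15 for controls and 0.41, 0.56 and -0.50 for knockouts. In knockout replicate 2 all 10 markers were above their own mean, in knockout replicate 1 it was 8 of 10, in control replicate 2 it was 6 of 10, and in the other 3 libraries 0 of 10 were above it. The library means accounted for 70.7% of the total sum of squares of the 10 genes, a quantity that is 100% when genes move as 1 and near 10% when 10 genes move independently. After group means were subtracted the value was 70.8%, which pools both genotypes and was not computed for each alone. Within the controls the markers differed in course, with the highest control in replicate 2 for Vwf, replicate 3 for Pecam1 and replicate 1 for Nos3. The value over all libraries was 77.7% without control replicate 2, and 60.1% to 80.1% when any 1 library was left out. Shared movement was not particular to these markers. The macrophage list had a share of 84.5% and the red cell list, with 5 tested genes, 98.3%. The other lists with a value ran from 4.15% (endoglin and ALK1 pathway) to 61.7% (brown adipocyte), with 51.5% for 20 other general endothelial genes. The value for independent movement depends on list length. It is near 20% for the red cell list and near 5% for the 20 endothelial genes, so lists of unlike length are not directly comparable.

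**Figure D2:**
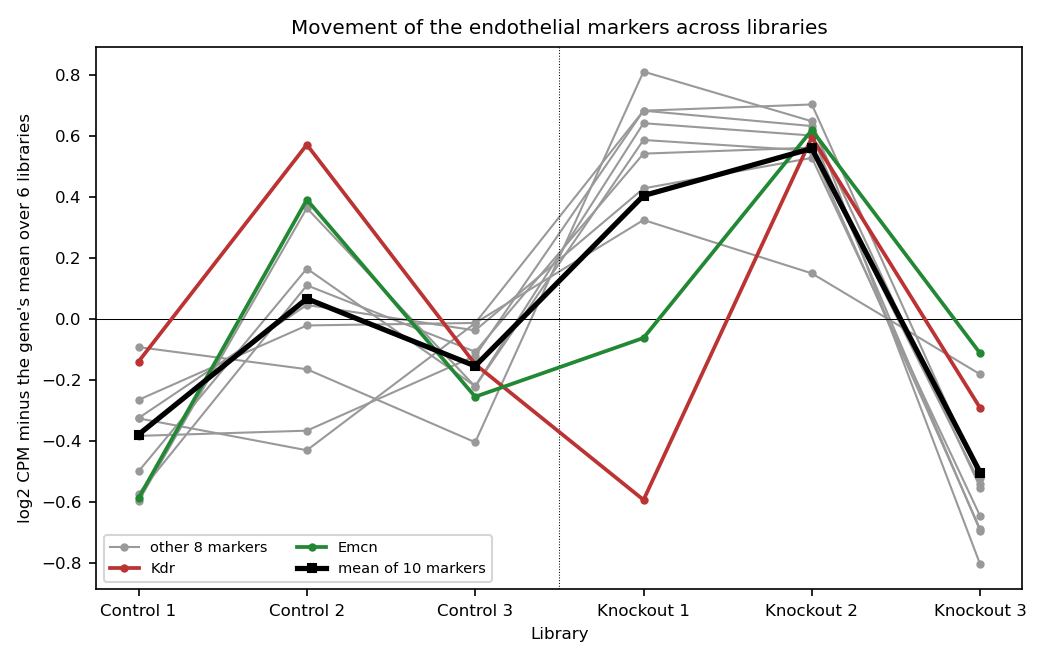
Log2 CPM of each marker minus its own mean over the 6 libraries (vertical axis) by library (horizontal axis). The 8 grey lines rise together in knockout replicates 1 and 2 and drop in knockout replicate 3, Kdr (red) falls in knockout replicate 1, Emcn (green) stays near 0 there, and the black line is the mean of all 10.

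Single genes tracked that mean unevenly. The root mean square difference from the mean of the other 9 markers was 0.09 log2 units for Tek, 0.11 for Cdh5, 0.16 for Vwf and 0.21 for Ptprb. It was 0.24 for Pecam1, 0.26 for Eng, 0.27 for Tie1, 0.31 for Nos3, 0.33 for Emcn and 0.53 for Kdr. Without control replicate 2, Pecam1 and Tie1 came nearer, at 0.12 each, and Kdr (0.51), Emcn (0.32) and Nos3 (0.31) remained the farthest. Eng moved less than the others, with a root mean square size of 0.20 against 0.40 to 0.57 for the other 9.

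Ratios of counts within a library do not depend on how libraries are scaled. For Tie1, Ptprb, Vwf, Cdh5, Tek and Nos3 the ratio to Pecam1 varied less over the libraries than the gene itself. Tie1 had 15.8% to 17.9% as many counts as Pecam1 in all 6 libraries, a 1.13-fold range, while Pecam1 itself varied 2.34-fold. Outside control replicate 2, Ptprb ranged from 45.7% to 49.7% of Pecam1 counts (1.09-fold), Vwf from 56.1% to 61.5% (1.10-fold) and Cdh5 from 15.63% to 18.01% (1.153-fold). In control replicate 2 the same 3 genes stood at 88.1%, 91.4% and 24.8%. These genes therefore kept a near-constant proportion to Pecam1 in 5 libraries and departed from it in the shallowest library, whose share of mitochondrial ribosomal RNA was the highest. The part of that library's composition in the departure was not tested. Tek ran from 10.6% to 16.8% (1.59-fold, or 1.26-fold without control replicate 2) and Nos3 from 17.5% to 26.1% (1.49-fold with or without it).

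Eng, Kdr and Emcn had looser proportions. Eng stood at 20.6% and 17.97% of Pecam1 counts in knockout replicates 1 and 2 and at 28.4% to 33.5% in the other 4 libraries. Kdr ranged from 1.65% in knockout replicate 1 to 7.70% in control replicate 2, a 4.68-fold range that was 2.88-fold without that control. Emcn ranged from 1.14% to 3.25% in the same 2 libraries, a 2.85-fold range that was 2.23-fold without it.

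**Figure D3:**
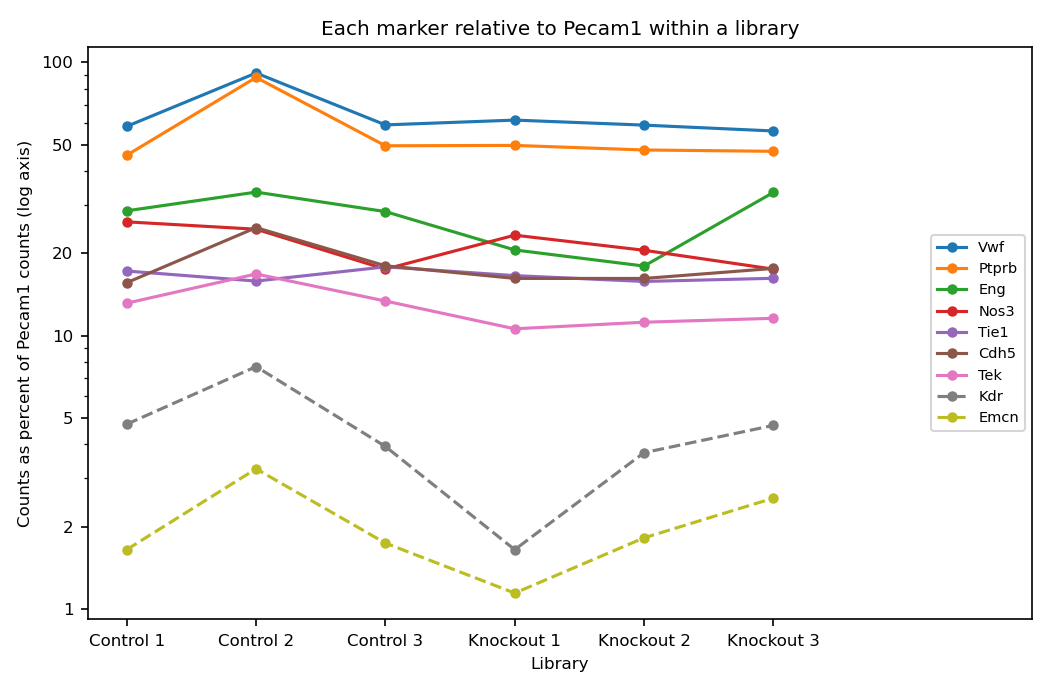
Counts of each of the other 9 markers as a percent of Pecam1 counts in the same library (vertical log axis) by library (horizontal axis). The Tie1 line is nearly flat at 15.8% to 17.9%, Vwf and Ptprb step up in control replicate 2, and the dashed lines of Kdr and Emcn have their lowest points in knockout replicate 1.

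Levels per length, as the deposited FPKM (fragment numbers corrected for the length of the gene and the size of the library), gave an order of the markers. Pecam1 had a mean of 52.3 ± 21.1 FPKM over the 6 libraries (SD) and exceeded the next gene, Nos3 (22.2 ± 9.60), in all 6. Nos3, Cdh5 (18.9 ± 6.16), Ptprb (17.3 ± 6.08), Eng (16.0 ± 2.40) and Vwf (14.8 ± 5.43) followed, and their order was not stable, with Nos3 above Cdh5, Ptprb above Eng and Eng above Vwf in 3 of 6 libraries each. Cdh5 was above Ptprb in 5 of 6. Vwf exceeded Tie1 (12.8 ± 4.997), Tie1 exceeded Tek (7.61 ± 2.20) and Tek exceeded Kdr (1.90 ± 0.578) in all 6. Kdr and Emcn (1.33 ± 0.371), the 2 markers farthest from the shared movement, were also the 2 lowest per length, and Kdr was above Emcn in 5 of 6 libraries. Per count, their error was the largest, with 1379 Kdr and 668 Emcn counts over all libraries against 4445 or more for the others.

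Knockout replicate 3 was the lowest library for 6 of the 10 markers, so leaving it out had to raise their fold changes, and the values without it are a description of how far 1 library sets the result. With it left out, log2 fold changes of all 10 markers were positive and their median was 0.70, against 0.40 with it. Without that library 0 of 10 markers were called by edgeR, against 0.2% of the genes tested in that fit, and 7 of 10 had an unadjusted p under 0.05, against 19.4%. Leaving out any other single library gave 0 of 10 under 0.05. Pecam1 then had a log2 fold change of 0.98 ± 0.15 (adjusted p = 0.0631), Nos3 of 0.95 ± 0.15 (0.0684) and Tie1 of 0.90 ± 0.16 (0.0778). Knockout replicate 3 had 70.9 CPM of Ogt, close to knockout replicate 2, and the highest smooth muscle sum of the knockouts, at 37203 CPM against 30547 and 32118. Leaving out control replicate 2 gave a median of 0.61 and 0 markers called, and leaving out control replicate 1, knockout replicate 1 or knockout replicate 2 gave medians of 0.22, 0.28 and 0.23.

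**Figure D4:**
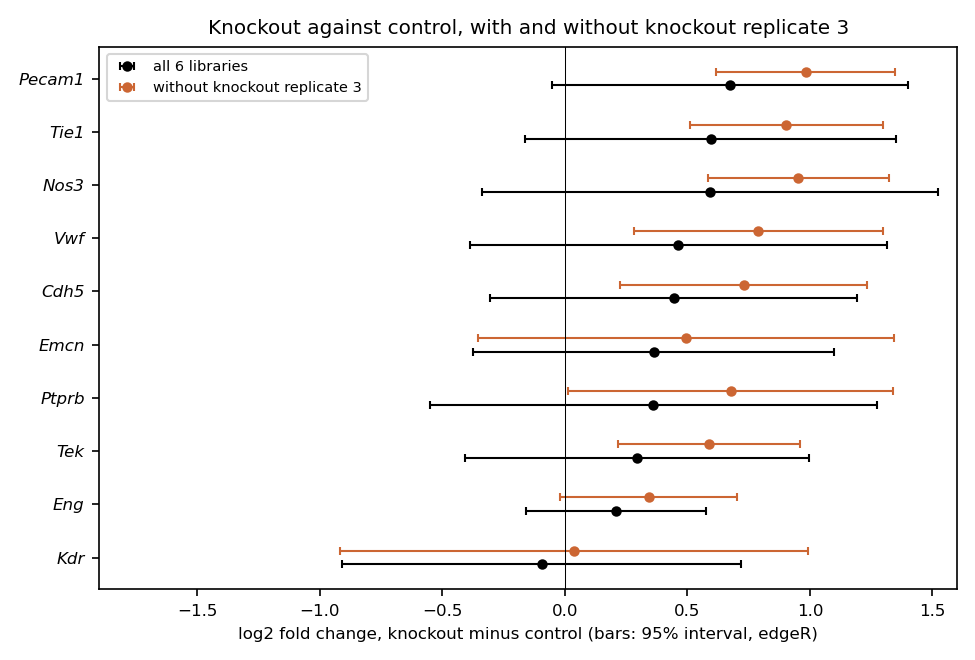
Log2 fold change of each marker, knockout minus control (horizontal axis), from all 6 libraries (black) and without knockout replicate 3 (orange), with 95% intervals from edgeR. Every black interval includes 0, and the orange intervals exclude 0 for 7 markers and include it for Eng, Emcn and Kdr.

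A further 20 genes of endothelial cells in general, none of them among the 10 markers, moved in the same libraries. Their mean gene-centred log2 CPM was -0.18, -0.12 and 0.02 in controls and 0.34, 0.43 and -0.49 in knockouts. Knockout replicates 1 and 2 were the highest and knockout replicate 3 the lowest library for 11 of these 20 genes and for 6 of the 10 markers, beside 1.43% of all tested genes. This order was picked after the values were seen, and genes of 1 library share its cells and depth, so the counts are a description. By edgeR 0 of the 20 were called and 0 had an unadjusted p under 0.05, beside 3.45% and 22.7% of all tested genes. DESeq2 and limma voom called 0, beside 9.32% and 4.73% of the genes they tested. The median log2 fold change by edgeR was 0.23. The 3 with the smallest p were S1pr1, the receptor of the lipid mediator sphingosine-1-phosphate, Mmrn2, a matrix protein of vessels, and Rasip1, a Ras-interacting protein needed for vessel lumens. Mmrn2 had 60.2, 63.4 and 73.3 CPM in controls and 132.2, 127.5 and 53.7 CPM in knockouts. S1pr1 had 26.9, 41.5 and 53.0 CPM in controls and 75.4, 78.7 and 42.1 CPM in knockouts, and knockout replicate 3 was below every control for Mmrn2 and within the controls for S1pr1. Their log2 fold changes were 0.67 and 0.69, and that of Rasip1 was 0.63, with edgeR adjusted p-values of 0.28, 0.251 and 0.329. Transcription factors of the endothelium (15 tested) had 0 called, 1 at an unadjusted p under 0.05 and a median of 0.11, and their mean was lowest in knockout replicate 3 as well (-0.42).

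Among the 5 tested genes outside the markers whose movement over the 6 libraries was most like the marker mean were Lyn, Adcy4, Flt4 and Fgd3. Their root mean square differences from it were 0.09, 0.09, 0.10 and 0.10 log2 units, against a median of 0.49 over all tested genes. Lyn encodes a Src-family kinase, Adcy4 an adenylyl cyclase and Flt4 the VEGF-C receptor. Adcy4 had 27.7, 39.7 and 30.4 CPM in controls and 46.6, 47.0 and 26.8 CPM in knockouts, and Flt4 had 6.74, 8.53 and 8.65 against 10.5, 13.2 and 6.54. Of the 20 general endothelial genes, 15 were among the 1000 genes nearest to the marker mean, out of 16125 ranked. None of the 12 contractile smooth muscle genes, the 10 fibroblast genes or the 10 macrophage genes was among them. At 1000 of 16125 genes, lists this short would hold few or none, so these counts of 0 do not set them apart from all genes. Of the endothelial subtype lists, 2 of 10 arterial, 1 of 8 venous, 1 of 10 capillary and 2 of 7 lymphatic genes were. The endothelial transcription factors had 3 of 15. The VEGF and angiopoietin system, which shares Flt1 and Flt4 with other lists, had 6 of 14. Nitric oxide synthase regulators had 3 of 12, junction partners 2 of 12, the endoglin and ALK1 pathway 0 of 10, and Schwann and nerve genes 1 of 8. Without control replicate 2 the count was 12 of 20 general endothelial genes and 0 for the smooth muscle, fibroblast and macrophage lists. It was then 4 arterial, 2 venous, 0 capillary and 2 lymphatic genes and 5 transcription factors. The VEGF, nitric oxide synthase, junction, endoglin and Schwann lists then had 4, 2, 4, 1 and 1.

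Kdr and Emcn lay nearer to the mean of a list of capillary genes than to the mean of the other markers. Only the capillary list was compared in this way. Distances of these 2 markers from the means of other lists were not measured, so no cell type is assigned to them. The 10 capillary genes had a mean of -0.28, 0.13 and 0.06 in controls and -0.30, 0.51 and -0.12 in knockouts. Knockout replicate 2 was the highest library for 8 of the 10, among them the butyrophilin-like gene Btnl9, with 6.25, 10.8 and 12.0 CPM in controls and 7.06, 22.3 and 10.03 CPM in knockouts. Cd300lg had 14.6, 22.2 and 19.3 CPM in controls and 12.2, 31.4 and 20.4 CPM in knockouts. For Kdr the root mean square difference was 0.25 from the capillary mean and 0.53 from the mean of the other 9 markers, and for Emcn it was 0.23 and 0.33. For the other 8 markers the marker mean was the nearer of the 2. Without control replicate 2 the same held, with 0.17 and 0.51 for Kdr and 0.22 and 0.32 for Emcn. The lymphatic list (7 tested) and the Schwann and nerve list (8 tested) also had their highest means in knockout replicate 2, at 0.67 and 0.56, and means of -0.37 and -0.16 in knockout replicate 1. Among the 10 capillary genes edgeR, DESeq2 and limma voom made 0 calls, against 3.45%, 9.32% and 4.73% of the genes they tested. In edgeR 0 had an unadjusted p under 0.05, against 22.7%, and the median log2 fold change was 0.11.

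**Figure D5:**
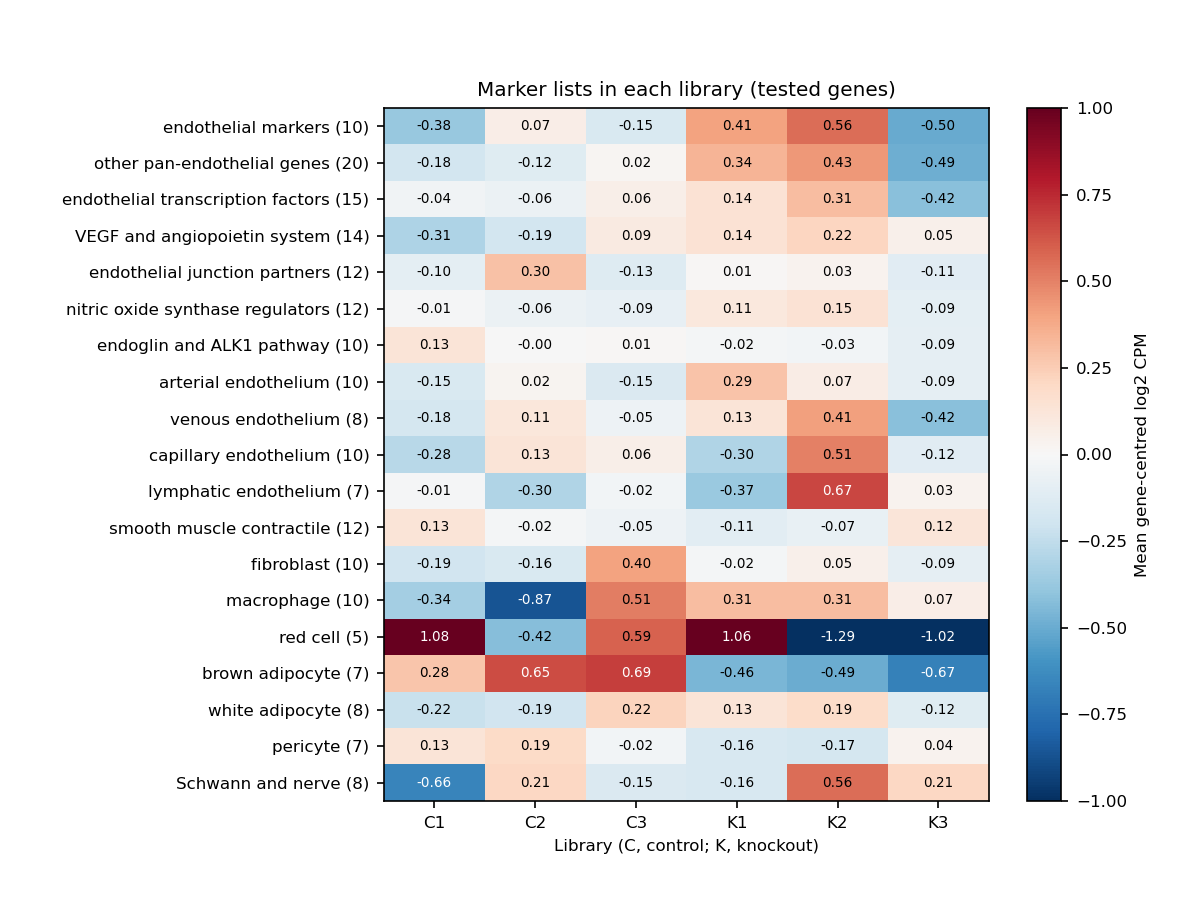
Mean gene-centred log2 CPM of the tested genes of each list (rows, number of genes in brackets) in each library (columns, C control, K knockout), with colours capped at -1 and 1 and lists of at least 5 tested genes shown. The endothelial markers and the other pan-endothelial genes have their highest values in K1 and K2 and their lowest in K3, as do the transcription factor, venous and nitric oxide synthase regulator rows, an order not seen in the smooth muscle, fibroblast, macrophage or adipocyte rows.

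Among ligands and receptors of the VEGF and angiopoietin families, to which KDR and TIE2 belong, 1 gene was called. Of 14 genes of the VEGF and angiopoietin system, Pgf rose and 13 were not called, beside 1.9% called higher among all tested genes, and the median over the 14 was 0.08. Pgf (ENSMUSG00000004791; chromosome 12, 85166635 to 85177790) encodes placental growth factor, a ligand of the VEGF receptor FLT1. It had 8.59, 5.19 and 11.6 CPM in controls and 37.8, 32.2 and 29.8 CPM in knockouts. All knockout libraries, replicate 3 included, stood above all controls, so this course differs from that of the endothelial markers. The log2 fold change was 1.89 ± 0.25 (edgeR adjusted p = 0.0198). The call was lost without control replicate 1 (adjusted p = 0.109) or without knockout replicates 1, 2 or 3 (0.116, 0.112 and 0.0554). Vegfa, the main ligand of KDR, had 36.3, 54.1 and 41.1 CPM in controls and 74.2, 65.1 and 53.6 CPM in knockouts (log2 fold change 0.57 ± 0.19, edgeR adjusted p = 0.13). Angpt2, the angiopoietin that endothelial cells secrete, had a log2 fold change of -0.25 (0.217).

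Lists built around the other markers had 0 members called by edgeR, beside 3.45% of all tested genes. DESeq2 and limma voom called 9.32% and 4.73% of the genes they tested, and 22.7% of genes had an unadjusted edgeR p under 0.05. The 12 junction partners of VE-cadherin had a median log2 fold change of -0.04, with 1 gene at an unadjusted p under 0.05, Jup, which encodes plakoglobin (99.1, 99.4 and 91.6 CPM in controls and 73.0, 64.6 and 74.3 CPM in knockouts, log2 fold change -0.45 ± 0.11, edgeR adjusted p = 0.0705). DESeq2 called Jup and limma voom called 0. The 12 tested regulators of nitric oxide synthase had a median of 0.09 with 1 at an unadjusted p under 0.05, Ddah2, whose product breaks down an inhibitor of the synthase (log2 fold change 0.48, edgeR adjusted p = 0.164), and DESeq2 and limma voom called 0. The 10 tested genes of the endoglin and ALK1 pathway had a median of -0.13 and 3 at an unadjusted p under 0.05, a share near the 22.7% of all tested genes. The 3 were Smad9, a transducer of BMP signals (-0.83, edgeR adjusted p = 0.0765), its target Id1 (0.52, 0.124), and Acvrl1, which encodes the receptor ALK1 that works with endoglin (0.67, 0.186). DESeq2 called 1 of these 10, Smad9, and limma voom called 0. Acvrl1, itself a gene of endothelial cells, had 99.7, 57.1 and 109.7 CPM in controls and 168.3, 150.2 and 109.4 CPM in knockouts.

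Markers of other cell types are given beside the endothelial values. Contractile smooth muscle genes had means of 0.13, -0.02 and -0.05 in controls and -0.11, -0.07 and 0.12 in knockouts, so knockout replicate 3 was the highest knockout there. The difference between the endothelial and smooth muscle means was -0.51, 0.09 and -0.10 in controls and 0.51, 0.63 and -0.63 in knockouts. Platelet genes, relevant because platelets carry Pecam1 and Vwf, summed to 25.6, 37.8 and 25.2 CPM in controls and 19.7, 44.8 and 16.6 CPM in knockouts, against 172.1 to 435.1 CPM for Vwf alone, and 4 of 8 were tested. Knockout replicate 3 was the lowest library for both, and knockout replicate 1, the highest for Vwf, was the second lowest for platelet genes. Macrophage genes, 10 of 10 tested, summed to 213.9 to 647.8 CPM in controls and 437.1 to 536.1 CPM in knockouts, with knockout replicate 3 at 437.1 CPM. Red cell genes, 5 of 6 tested, summed to 323.3 to 970.7 CPM in controls and to 982.9, 191.3 and 223.1 CPM in knockouts. The 8 lymphocyte genes summed to 1.48 to 5.53 CPM and none was tested. None of the genes of these lists was at 0 in all libraries, and their part in the endothelial values was not tested.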

How the data were processed

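Whole-aorta RNA was measured in 3 control and 3 knockout libraries, grouped by their titles. The submitters' processing notes name CASAVA 1.8, HISAT2, SAMtools 1.3.1 and edgeR, with no roles. For the counting step, no program, annotation or strand setting is given in the sources used here. Per the file headers the authors deposited a read count and an FPKM value per gene and library. A single length per gene relates the deposited FPKM to counts and totals in every library, to a relative 1.35e-05 over 7705 genes, and FPKM served only to compare levels between genes. The notes name build GRCm39, but 99.4% of the 55141 identifiers shared with GENCODE M21 had GRCm38 positions, including all 10 markers, so positions are given as GRCm38.

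In R 4.3.3, counts were filtered with filterByExpr, scaled by trimmed mean of M values (TMM) and tested with edgeR 4.0.16 (glmQLFit, robust, and glmQLFTest), with Benjamini-Hochberg adjustment over 16139 genes and a threshold of 0.05. Each SE was derived from the log2 fold change and its F statistic. Log2 CPM used a prior count of 2. The test was checked on simulated counts. DESeq2 1.42.0 and limma 3.58.1 (voom) were alternatives, with other scalings, filters, a replicate block and each library left out. Distances from the marker and capillary means without control replicate 2 were added after the data were seen. The 10 markers and 21 other gene lists were chosen with earlier results of these data known. Genes named were the markers, Ogt and Tagln, up to 3 per list with the smallest p, and the 5 most like the marker mean, of which 1 is not reported here. Comparing libraries gave a chi-square of 15.5 to 152.5 per gene on average, and none was taken for a copy.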

Additional observations from a re-analysis of the deposited data

How the results depend on the processing

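The count of markers called was 0 under every alternative tried, which were 2 other scalings, leaving out mitochondrial genes and Malat1, 2 other filters, no robust estimation, DESeq2, limma voom, the replicate block and each library left out. The count over all genes, 557, was 193 with library totals, 1501 with DESeq2, 28 with the replicate block and 7 (without control replicate 1) to 911 (without control replicate 2) when 1 library was left out, with 280, 12, 13 and 33 without control replicate 3 and knockout replicates 1, 2 and 3. With the block the adjusted p of Pgf and of Ogt was 0.0572. Same-numbered libraries correlated in their deviations at 0.05, 0.09 and -0.06 over 16125 genes, and differently numbered ones at -0.10 to 0.10. These values give no sign of pairing by number, but 3 libraries per group are too few to decide it. The share of variance explained by libraries ran from 60.1% to 80.1% with 1 library left out, and it does not depend on robust estimation, the block or DESeq2. With 1 library left out, log2 fold changes ran from -0.53 to 0.15 for Kdr (positive without control replicate 2, knockout replicate 1 or knockout replicate 3), from -0.15 to 0.77 for Btnl9 and from -0.17 to 0.50 for Cd300lg (both negative without knockout replicate 2), and from -0.59 to 0.0073 for Aqp7 (positive without knockout replicate 1). The cause was not tested. Control replicate 2, the shallowest library, limits Emcn and Kdr most, with 30 and 71 counts.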

Other observations

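Endothelial subtypes gave 0 calls by edgeR, DESeq2 or limma voom, which called 3.45%, 9.32% and 4.73% of the genes they tested. An unadjusted edgeR p under 0.05 was found for 22.7% of all tested genes. The arterial list (10 tested) had a median log2 fold change of 0.26 and 0 genes at an unadjusted p under 0.05, led by the elastic fibre gene Fbln5 (0.31), which smooth muscle also makes, and the connexin gene Gja4 (0.37). The venous list (8 tested) had a median of 0.35 and 1 gene at an unadjusted p under 0.05, the ephrin receptor gene Ephb4 (-0.33, edgeR adjusted p = 0.156). Vcam1, an adhesion molecule induced on activated endothelium, had 54.0, 59.7 and 65.4 CPM in controls and 151.2, 96.6 and 50.2 CPM in knockouts. The lymphatic list (7 tested) had a median of 0.31 and 0 genes at an unadjusted p under 0.05, and its scavenger receptor gene Stab1 had 101.3, 138.3 and 154.6 CPM in controls and 203.6, 192.8 and 104.5 CPM in knockouts.

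Among the other cell types of the wall, the pericyte list (7 tested, median -0.27) had 1 gene lower, Abcc9, a potassium channel subunit also made by smooth muscle (log2 fold change -0.81, edgeR adjusted p = 0.0434), and the brown adipocyte list (7 tested, median -1.14) had 3 lower, Ucp1, Cox8b and Cox7a1, beside 1.56% of all tested genes. Smooth muscle genes (12 tested, median -0.07) had 1 lower, Tagln. DESeq2 called 1, 5 and 4 and limma voom 1, 3 and 2 genes of the pericyte, brown adipocyte and smooth muscle lists. The shares over the genes they tested were 9.32% and 4.73%. By edgeR 3, 5 and 5 of these lists had an unadjusted p under 0.05, beside 22.7% of all tested genes. The calls of Abcc9, Cox8b, Cox7a1 and Tagln were lost when any 1 library other than control replicate 2 was left out, and that of Ucp1 held each time. The fibroblast, macrophage, white adipocyte, platelet, red cell and Schwann lists had medians of 0.02, 0.35, -0.05, 0.09, -0.56 and 0.24 and 0 genes called by edgeR, DESeq2 or limma voom, with 2, 0, 2, 0, 0 and 1 at an unadjusted p under 0.05. Of 8 mesothelium genes 1 was tested, Krt18, which was higher (log2 fold change 1.06, edgeR adjusted p = 0.0469), beside 1.9% of all tested genes, and whose call was also lost without any 1 library other than control replicate 2.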
